A study of Mus musculus with 6 samples.

Results

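The 10 genes described here encode parts of heart muscle cells, and they were read in whole mouse lung on 6 arrays, among 19935 genes measured in all. They are Myl7, Myl4, Myh6, Myh7, Tnnt2, Tnni3 and Actc1 of the contractile apparatus, Ryr2 and Sln of calcium handling, and the hormone gene Nppa. Each was taken by its symbol in the platform annotation, and all 10 were found, each on 1 probe set, so no choice between probe sets was needed. Total lung RNA came from 3 samples of wild type and 3 of genotype Scnn1b-Transgenic, written Scnn1b-Tg below, all on the C57BL/6 background. The transgene adds copies of Scnn1b, which encodes a subunit of ENaC, the channel that takes up sodium at epithelial surfaces. In the published line of this name it is driven by the club cell secretory protein promoter and so acts in airway epithelium, but the labels name no promoter, age or sex. The study's stated purpose was a search for candidate genes of emphysema. Whether each sample is a mouse of its own is not stated, and the p-values then reflect only how far these samples differ, which may be technical.

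In mice a sleeve of heart muscle continues from the left atrium along the pulmonary veins into the lung, where it forms the outer wall of the larger veins. Its cells contract with the heart and express the same sarcomere genes as atrial muscle. The sarcomere is the repeating unit of thick myosin and thin actin filaments, and troponin on the thin filament makes it respond to calcium, which is released from internal stores through the ryanodine receptor. Atrial muscle differs from ventricular muscle in its myosin light chains, Myl7 and Myl4, in sarcolipin, and in its secretion of atrial natriuretic peptide.

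The start regions of these genes are shown first. Several of the 10 genes varied together over the 6 arrays, and whether the start regions have a part in that was not tested. RefSeq start regions (build GRCm38.p6) were matched by symbol for 9 of the 10 genes, all but Sln, and the 250 bases before the annotated start were read. Where a gene had more than 1 start (Tnnt2 and Myh7), the one farthest upstream was used. Which start lung RNA uses was not measured. The 5 regions below belong to Myl7, Tnnt2, Myh6, Actc1 and Nppa. Within the 10 genes, Tnnt2, Myh6 and Actc1 followed the values of Myl7 most closely over the 6 arrays, and Nppa did not follow them. Capitals mark matches, on either strand, to binding motifs of heart muscle transcription factors: the CArG box of SRF, the MEF2 site, GATAA of GATA factors, CATTCC (the M-CAT element of TEAD factors) and TNAAGTG of NKX2-5.
Myl7, chr11:5898783-5899032, minus strand: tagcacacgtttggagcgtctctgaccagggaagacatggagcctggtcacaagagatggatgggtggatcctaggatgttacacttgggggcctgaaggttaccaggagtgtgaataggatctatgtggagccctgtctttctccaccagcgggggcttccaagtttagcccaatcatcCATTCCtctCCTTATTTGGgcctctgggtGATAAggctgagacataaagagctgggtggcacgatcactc
Tnnt2, chr1:135836084-135836333, plus strand: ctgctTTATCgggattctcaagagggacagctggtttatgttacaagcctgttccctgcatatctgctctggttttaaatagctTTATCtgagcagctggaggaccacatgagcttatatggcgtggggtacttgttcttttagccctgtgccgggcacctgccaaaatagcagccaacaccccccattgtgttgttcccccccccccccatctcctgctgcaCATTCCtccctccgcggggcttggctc
Myh6, chr14:54966608-54966857, minus strand: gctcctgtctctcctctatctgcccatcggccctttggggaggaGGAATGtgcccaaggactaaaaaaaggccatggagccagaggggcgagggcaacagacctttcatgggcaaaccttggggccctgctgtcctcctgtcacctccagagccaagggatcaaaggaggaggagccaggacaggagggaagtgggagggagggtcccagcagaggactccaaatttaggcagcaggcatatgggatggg
Actc1, chr2:114052876-114053125, minus strand: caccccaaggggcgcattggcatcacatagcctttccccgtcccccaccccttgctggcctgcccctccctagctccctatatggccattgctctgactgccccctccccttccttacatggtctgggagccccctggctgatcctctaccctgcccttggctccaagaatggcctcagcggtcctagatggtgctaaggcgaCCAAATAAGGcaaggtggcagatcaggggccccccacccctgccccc
Nppa, chr4:148000472-148000721, plus strand: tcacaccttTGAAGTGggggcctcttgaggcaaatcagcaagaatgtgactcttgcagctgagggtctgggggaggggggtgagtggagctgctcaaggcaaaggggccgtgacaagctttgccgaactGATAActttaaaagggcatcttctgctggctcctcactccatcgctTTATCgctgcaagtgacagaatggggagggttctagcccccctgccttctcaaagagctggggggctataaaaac

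A CArG box was found before Myl7, beginning 61 bases upstream of the start, and before Actc1, beginning 47 bases upstream. It occurs in 1.47% of the 32841 start regions of that length in the table. CATTCC was found in 4 of the 9 regions (Myl7, Tnnt2, Myh6 and Myh7) against 12.6% of all regions, and GATAA in 3 of 9 (Myl7, Tnnt2 and Nppa) against 22.6%. TNAAGTG was found in 2 of 9 (Nppa and Myh7) against 10.1%, and the MEF2 site in 0 of 9 against 2.92%. These counts depend on the start used, since the other start regions of Tnnt2 and Myh7 held 0 matches to any of the motifs. The shares of all regions count every start of a gene. The Myl7 region was the only one of the 9 that held the CArG box, CATTCC and GATAA together, all within its last 70 bases. The share of all regions that hold these motifs together was not counted. No match in these regions overlapped another. A match says only that the letters are there, and binding was not measured.

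The values are RMA intensities on a linear scale, and an intensity may be set against the same gene on another array but not against another gene. The 6 arrays had medians of 47.6 to 48.5 and lowest intensities of 18.3 to 18.6, and precision is limited by there being 3 per genotype. Scnn1b averaged 139.7 ± 31.9 (SD, n = 3) on wild-type arrays and 1422 ± 98.3 on transgenic arrays, and it was the only gene of the 19935 called by limma at an adjusted p under 0.05. Lung identity was plain on every array: the surfactant gene Sftpc lay at 7948 ± 614 (SD, n = 3) on wild-type arrays and 7973 ± 487 on transgenic arrays. On principal components, 2 arrays stood apart, wild type replicate 2 on the first (16.3, the others -8.91 to 5.46) and Scnn1b-Tg replicate 3 on the second (13.3, the others -8.03 to 2.47).

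Most of the contractile genes had lower mean values in Scnn1b-Tg lung, by 18.4% (Myl4) to 27.3% (Myl7) for Myl7, Myh6, Tnnt2, Actc1 and Myl4, but none of the 10 genes passed the test over all genes. The arrays of Scnn1b-Tg were wholly below those of wild type for 5 of the 10 genes, Myl7, Myl4, Myh6, Myh7 and Tnnt2, against 4.41% of all genes, and wholly above for 0, against 6.26%. Log2 fold changes (Scnn1b-Tg over wild type) were below 0 for 9 of 10, with a median of -0.25 beside a median of 0.0052 over all genes. With limma 0 of 10 were called at an adjusted p under 0.05, where 0.00502% of all genes were. At an unadjusted p under 0.05 there were 5 of 10, the same 5 genes, against 2.05% of all genes on the lower side, and 0 of 10 on the higher side, against 3.96%. For these 5 genes the exact two-sided permutation test over arrays gave p = 0.1, the smallest that 3 against 3 arrays allow. In whole tissue, fewer muscle cells and less RNA per muscle cell cannot be told apart.

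**Figure D1:**
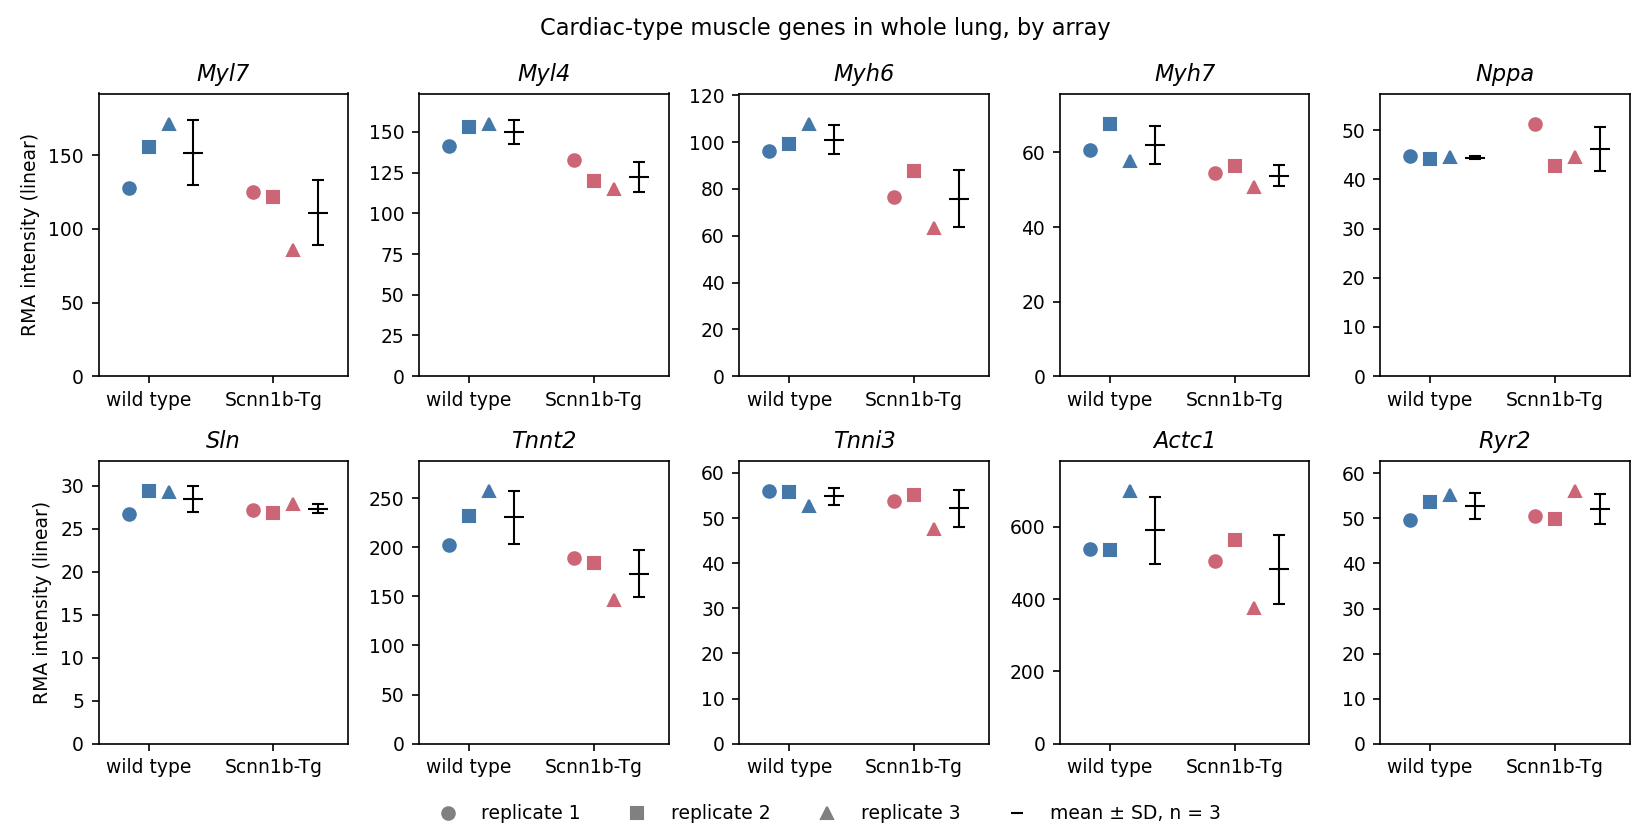
RMA intensity (linear, each panel from 0) of the 10 genes on 3 wild-type (blue) and 3 Scnn1b-Tg (red) arrays, with the replicate number as the symbol and black bars for the mean ± SD of 3 arrays. The red points lie wholly below the blue for Myl7, Myl4, Myh6, Myh7 and Tnnt2, and Scnn1b-Tg replicate 3 (red triangle) is the lowest array for 7 of the 10 genes.

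Among the light chains, Myl7, the regulatory light chain of atrial myosin, had intensities of 128, 156 and 171 on wild-type arrays and of 125, 122 and 85.7 on Scnn1b-Tg arrays. The groups did not overlap, but only a small step separated wild type replicate 1 from Scnn1b-Tg replicates 1 and 2, and the lowest value was that of Scnn1b-Tg replicate 3. This gave a log2 fold change of -0.46 ± 0.17 (SE), and limma's adjusted p was 0.758. Only 0.0251% of all genes (5 of 19935, Myl7 included) had a log2 fold change as low as that of Myl7. Without Scnn1b-Tg replicate 3 it was -0.28 and stood at place 85 from the lowest.

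Myl4, the essential light chain of atrial myosin, is also made in embryonic muscle. Its intensities were 141, 153 and 155 in wild type and 133, 119.7 and 115 in Scnn1b-Tg. The 2 groups were separate, and the spread within each (SD 7.38 and 9.11) was smaller than the step between their means of 149.8 and 122. Its log2 fold change of -0.29 ± 0.07 (SE) had the smallest adjusted p of the 10 genes, at 0.424 in limma, and was -0.25 without Scnn1b-Tg replicate 3.

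Of the heavy chains, Myh6 encodes the fast α-myosin of the adult mouse heart. It lay at 96.1, 99.2 and 108 on wild-type arrays and at 76.6, 87.5 and 63.5 on Scnn1b-Tg arrays. All Scnn1b-Tg values were below the lowest wild-type value, with a wider spread among them (SD 12.01 against 6.08). Its log2 fold change of -0.42 ± 0.11 (SE) had an adjusted p of 0.559 in limma and was -0.30 without Scnn1b-Tg replicate 3. Myh7 encodes the slow β-myosin, which in mice belongs to the embryonic ventricle and to slow skeletal fibres. It lay at 60.5, 67.7 and 57.8 in wild type and at 54.4, 56.3 and 50.6 in Scnn1b-Tg. The groups were just separate, with a log2 fold change of -0.20 ± 0.07 (SE) and an adjusted p of 0.757 in limma. Without its highest array, wild type replicate 2, the log2 fold change was -0.14, and without Scnn1b-Tg replicate 3 it was -0.16. Myh6 and Myh7 lie on the same chromosome (14) and their coding sequences are closely alike, so probes of one may take up RNA of the other, which was not tested.

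Troponin T, from Tnnt2, ties the troponin complex to tropomyosin. Tnnt2 had intensities of 203, 232 and 257 in wild type and 189, 184 and 146 in Scnn1b-Tg. The groups did not overlap, and the 6 arrays stood in the same order as for Myl7. Its log2 fold change of -0.42 ± 0.12 (SE) had an adjusted p of 0.649 in limma, and it was -0.30 without Scnn1b-Tg replicate 3. Troponin I of heart muscle, from Tnni3, is the subunit that blocks contraction at low calcium. Tnni3 gave 55.9, 55.8 and 52.7 in wild type and 53.8, 55.2 and 47.5 in Scnn1b-Tg, so the groups overlapped. Its log2 fold change of -0.07 (95% interval -0.23 to 0.09) rested on Scnn1b-Tg replicate 3, without which it was -0.0069.

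Actc1 encodes the cardiac α-actin of the thin filament, which is also made by fetal skeletal muscle. Its intensities were 537, 535 and 698 in wild type and 506, 563 and 376 in Scnn1b-Tg. The groups overlapped, since Scnn1b-Tg replicate 2 lay above wild type replicates 1 and 2. Its log2 fold change was -0.30 ± 0.17 (SE), and limma's adjusted p was 0.893. Without the highest array, wild type replicate 3, it was -0.17, and without the lowest, Scnn1b-Tg replicate 3, it was -0.13.

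For the remaining 3 genes the values of the genotypes overlapped. Nppa, the gene of atrial natriuretic peptide, which lowers blood pressure and volume, gave 44.8, 44.1 and 44.5 in wild type and 51.3, 42.7 and 44.6 in Scnn1b-Tg. Wild-type arrays lay close together, with 1 higher and 1 lower Scnn1b-Tg array around them, and the 95% interval of the log2 fold change ran from -0.12 to 0.22. Sln, the gene of sarcolipin, an inhibitor of the calcium pump, gave 26.7, 29.3 and 29.3 in wild type and 27.2, 26.9 and 27.9 in Scnn1b-Tg, with an interval of -0.18 to 0.07. Ryr2, the calcium release channel, gave 49.7, 53.6 and 55.2 in wild type and 50.6, 49.98 and 56.03 in Scnn1b-Tg, with an interval of -0.17 to 0.14. These lower bounds were all nearer to 0 than the log2 fold change of Myl4, -0.29. The 95% interval of Myl4, -0.45 to -0.13, overlapped those of Sln and Ryr2. Sln lay near the lowest intensities of the arrays, and Nppa and Ryr2 near the array medians of 47.6 to 48.5. No detection call is given for any gene, so whether RNA of these 3 genes was detected is not known.

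**Figure D2:**
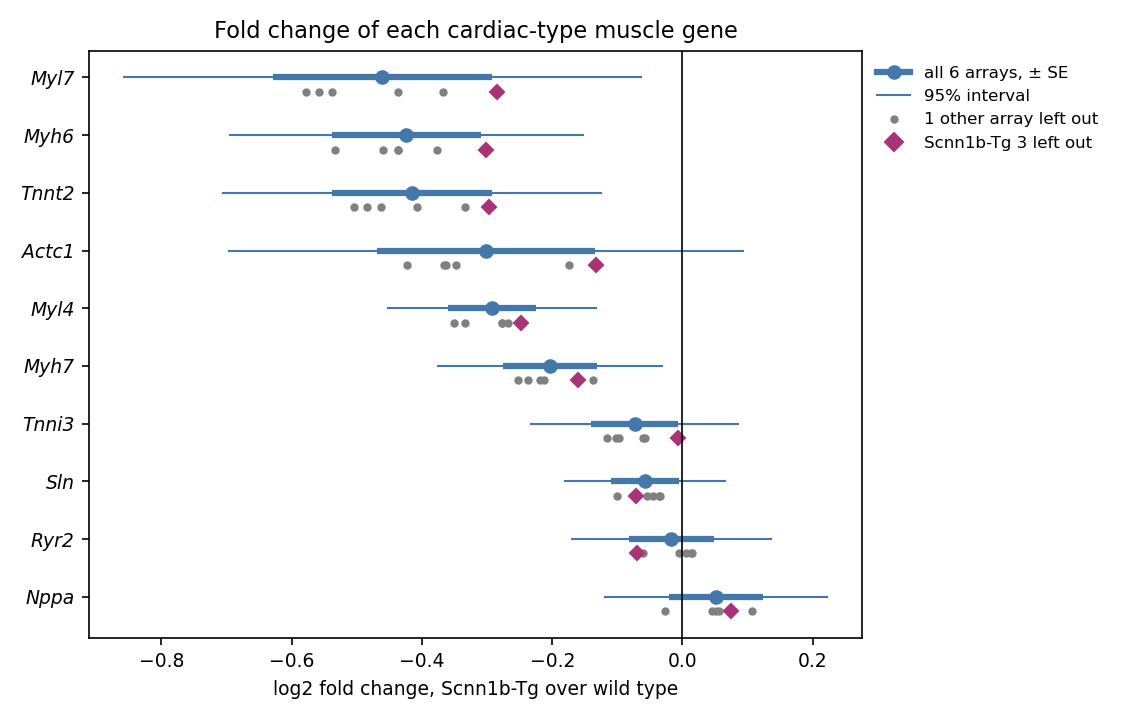
Log2 fold change (Scnn1b-Tg over wild type) of the 10 genes, with the SE of limma as thick bars, the 95% interval as thin bars, and below them the values with 1 array left out (grey points, and a diamond for Scnn1b-Tg replicate 3). The diamond is the value nearest to 0 for Myl7, Myh6, Tnnt2, Actc1, Myl4 and Tnni3, and the 95% interval includes 0 for Actc1, Tnni3, Sln, Ryr2 and Nppa.

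The arrays of 1 genotype also differed from each other. Scnn1b-Tg replicate 3 was the lowest of the 6 arrays for 7 of the 10 genes, against 18.4% of all genes. Wild type replicate 3 was the highest for 5 of the 10, against 15.3% of all genes. As log2 deviations from the mean of the 6 arrays, Myl7 stood at -0.58, Actc1 at -0.49, Myh6 at -0.46 and Tnnt2 at -0.44 on Scnn1b-Tg replicate 3. The same 4 genes stood at 0.42, 0.40, 0.31 and 0.37 on wild type replicate 3. Without Scnn1b-Tg replicate 3, the 5 genes named above were still wholly lower in Scnn1b-Tg, against 9.4% of all genes, and the median log2 fold change of the 10 was -0.15. Without wild type replicate 2 as well, the same 5 were wholly lower, against 16.8% of all genes. At an unadjusted p under 0.05 there were 3 of 10 without Scnn1b-Tg replicate 3 (Myl4, Myh6 and Tnnt2), against 2.21% of all genes.

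Some markers of fat were higher on Scnn1b-Tg replicate 3 than on the other arrays. Of 8 fat markers, 5 were highest on Scnn1b-Tg replicate 3, where 22.2% of all genes were highest, and the same count of 5 of 8 held for the lung epithelium list. The fat markers' summed intensity was 419 there, 281 and 272 on the other Scnn1b-Tg arrays and 262 to 284 on the wild-type arrays. Adipoq, the gene of the fat cell hormone adiponectin, lay at 44.3 on Scnn1b-Tg replicate 3 and at 22.0 to 23.8 on the other 5 arrays. Fabp4, a fatty acid binding protein of fat cells and macrophages, lay at 136 there and at 39.7 to 58.3 elsewhere. Of the 8 fat markers 1 was lowest on Scnn1b-Tg replicate 3, against 18.4% of all genes. Cidec was higher on wild type replicate 3 (61.6) than on Scnn1b-Tg replicate 3 (58.6). None of the fat markers was at 0, which this scale does not reach. Mesothelium markers were highest on the same array for 4 of 8 genes, against the same 22.2% of all genes, with a summed intensity of 1439.8 there and of 1295 to 1408 on the other 5. The part of either tissue in the muscle gene values was not tested.

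**Figure D3:**
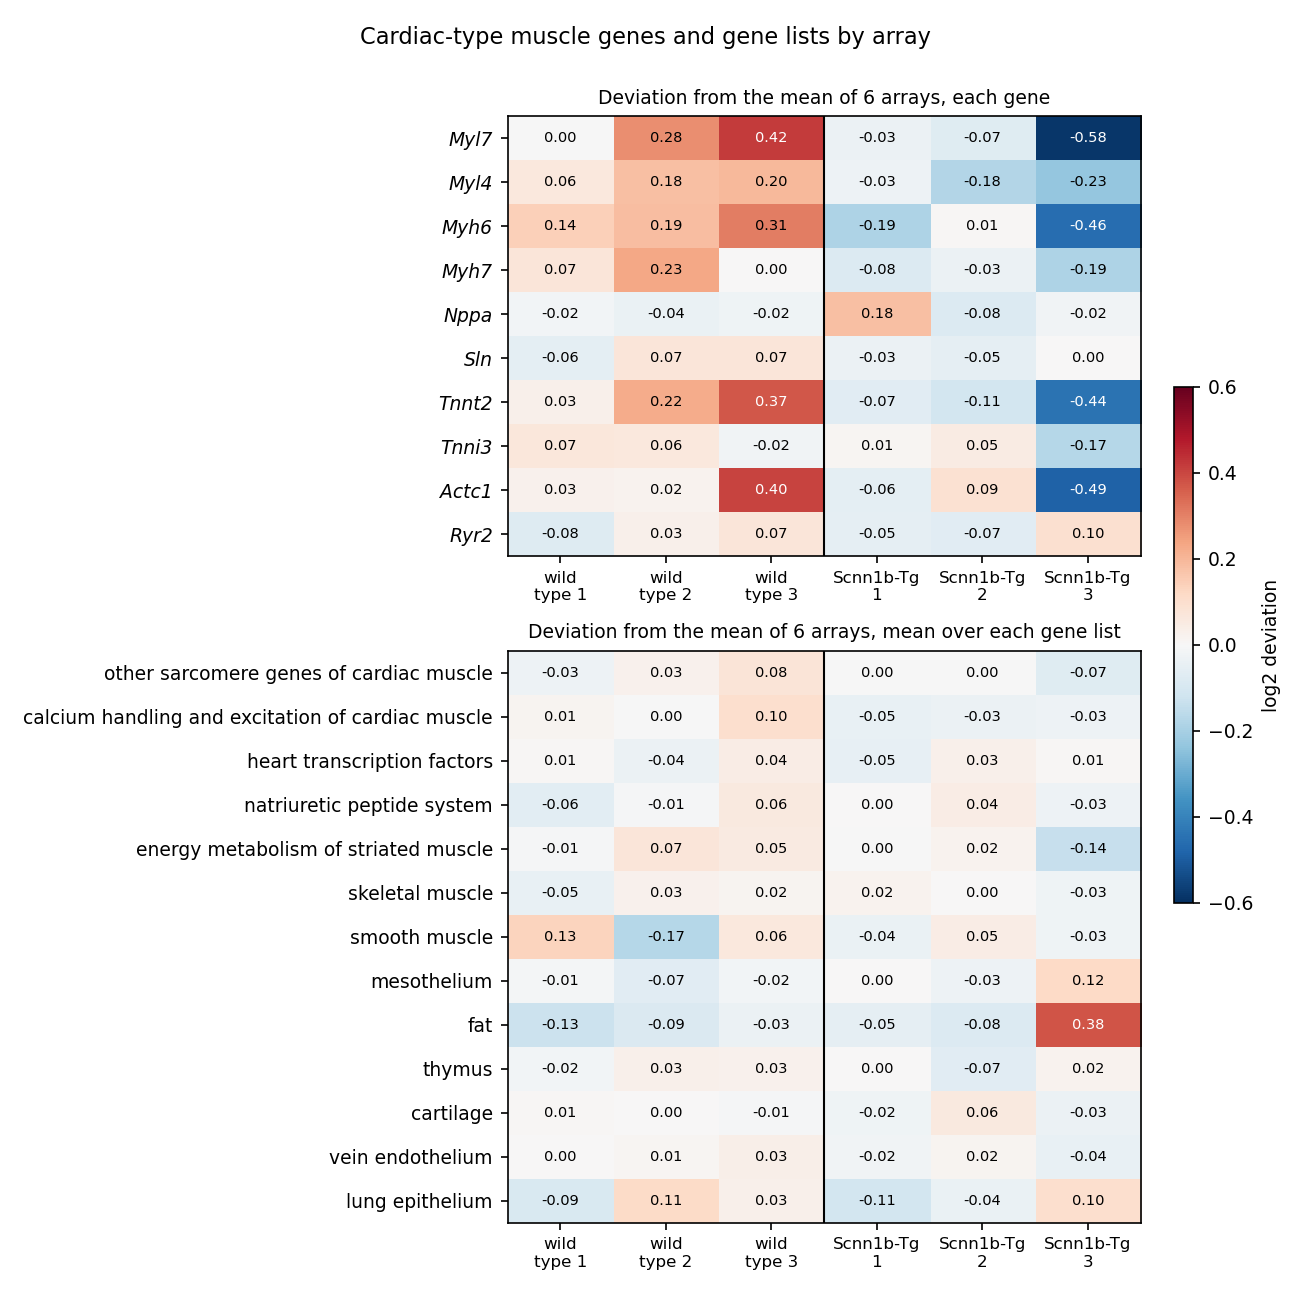
Log2 deviation from the mean of the 6 arrays, by array (columns), for each of the 10 genes (upper rows) and as the mean over each gene list (lower rows), with red for higher and blue for lower. Scnn1b-Tg replicate 3 holds the lowest values of Myl7, Actc1, Myh6 and Tnnt2 and the highest mean of the fat list (0.38), and wild type replicate 3 the highest values of those 4 genes.

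The genes closest to Myl7 over the 6 arrays were found by the root mean square difference between log2 values centred on each gene's mean. Of 19934 genes the closest was Tnnt2 (0.07), followed by Myh6 (0.12), with Actc1 (0.13) in place 4, so 3 of the 10 closest genes were of the set. The median over all genes was 0.32. The others of the 10 closest were Trim12c (0.13), Ctla2a (0.13), Gimap6 (0.15), Cyp4b1 (0.15), Fmo1 (0.16), Pln (0.16) and Emc2 (0.16). Pln encodes phospholamban, the regulator of the heart's calcium pump. Myl4 stood at place 23, Myh7 at 321, Tnni3 at 1235 and Sln at 3150, while Ryr2 (10556) and Nppa (11069) were no closer than most genes. Without Scnn1b-Tg replicate 3, the difference from Myl7 was 0.12 for Myh6 and 0.14 for Actc1. Tnnt2 was then in place 2 of the ranking, Myh6 in place 256 and Actc1 in place 742. Tnni3 went from 0.27 in place 1235 to 0.21 in place 11336. Differences with and without that array can therefore not be set against each other. By place, Myh6 and Actc1 were less close to Myl7 without it.

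The wider program of heart muscle was read from lists of further genes, all in the same limma fit. At an unadjusted p under 0.05 there were 2 lower and 1 higher genes among the other sarcomere genes, 1 lower each in the calcium, transcription factor, energy metabolism, thymus and lung epithelium lists, 1 higher each in the natriuretic peptide and mesothelium lists, and 0 in the skeletal muscle, smooth muscle, fat, cartilage and vein endothelium lists. Of 21 other sarcomere genes measured, 0 were called, 1 was wholly lower (Myom1) and 1 wholly higher (Csrp3, named after its values were seen), with a median log2 fold change of -0.03. Myom1, the myomesin that holds thick filaments together, gave -0.23 ± 0.09 (SE), and Ttn, the giant spring protein titin, -0.20 ± 0.08. The brightest on the list were Nebl (0.08 ± 0.07), a nebulin relative of the thin filament, and Nexn (-0.18 ± 0.10, and -0.28 without Scnn1b-Tg replicate 3), an actin-binding protein. The ventricular light chain gene Myl2, also named after its values were seen, lay between 26.4 and 28.1 on all 6 arrays.

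Of 18 genes of calcium handling and excitation, 0 were called and 15 had log2 fold changes below 0, with a median of -0.07, where 46.8% of all genes were below 0. Casq2, the cardiac calcium store protein, had intensities of 37.0, 43.2 and 45.5 in wild type and 34.7, 36.1 and 33.2 in Scnn1b-Tg. Its groups were separate, with a log2 fold change of -0.27 ± 0.08 (SE) and an adjusted p of 0.693 in limma, and it was -0.24 without Scnn1b-Tg replicate 3. Pln gave -0.24 ± 0.12 and, without that array, -0.14. The brightest genes of the list, the calcium pump gene Atp2a2 (0.13 ± 0.08, and 0.06 without that array) and the connexin gene Gja1 (-0.07 ± 0.08), are also made by many other cells.

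Of 15 heart transcription factors 0 were called, with a median of 0.0045. Tbx20, a T-box factor of heart muscle, was wholly lower at -0.16 ± 0.05 (SE), from a mean intensity of 31.7 to 28.5, and Hey2, a Notch target, gave -0.14 ± 0.07. Tbx20 was dim, at 27.6 to 32.2 over the arrays, and whether its RNA was detected is not known. The brightest, Mef2a (-0.03 ± 0.07) and Tead1 (-0.05 ± 0.12), are not restricted to muscle. In the energy metabolism list 10 of 11 genes had values below 0, with a median of -0.09 and 0 called. Fabp3, the fatty acid binding protein of heart, gave -0.22 ± 0.11, Hspb7, a small heat shock protein, -0.16 ± 0.10, and Mb, myoglobin, -0.14 ± 0.06 with its groups separate. Cryab, a small heat shock protein of many tissues and the brightest gene of this list, stood at -0.0086 ± 0.04.

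The natriuretic peptide system gave 0 called of 8, with a median of -0.03. Corin, the protease that cuts the precursor of atrial natriuretic peptide, was wholly higher in Scnn1b-Tg, with intensities of 36.2, 35.7 and 34.7 in wild type and 51.6, 44.6 and 37.2 in Scnn1b-Tg. This came to 0.31 ± 0.11 (SE) on the log2 scale, at an adjusted p of 0.757 by limma, and its lowest transgenic value was on replicate 3. Furin, a protease of many precursors, gave 0.24 ± 0.11, and 0.14 without Scnn1b-Tg replicate 3. The clearance receptor gene Npr3 gave -0.20 ± 0.11 and Mme, the gene of neprilysin, which breaks the peptides down, -0.15 ± 0.09, and without wild type replicate 2 they were -0.10 and -0.05. None of these 3 had separate groups.

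**Figure D4:**
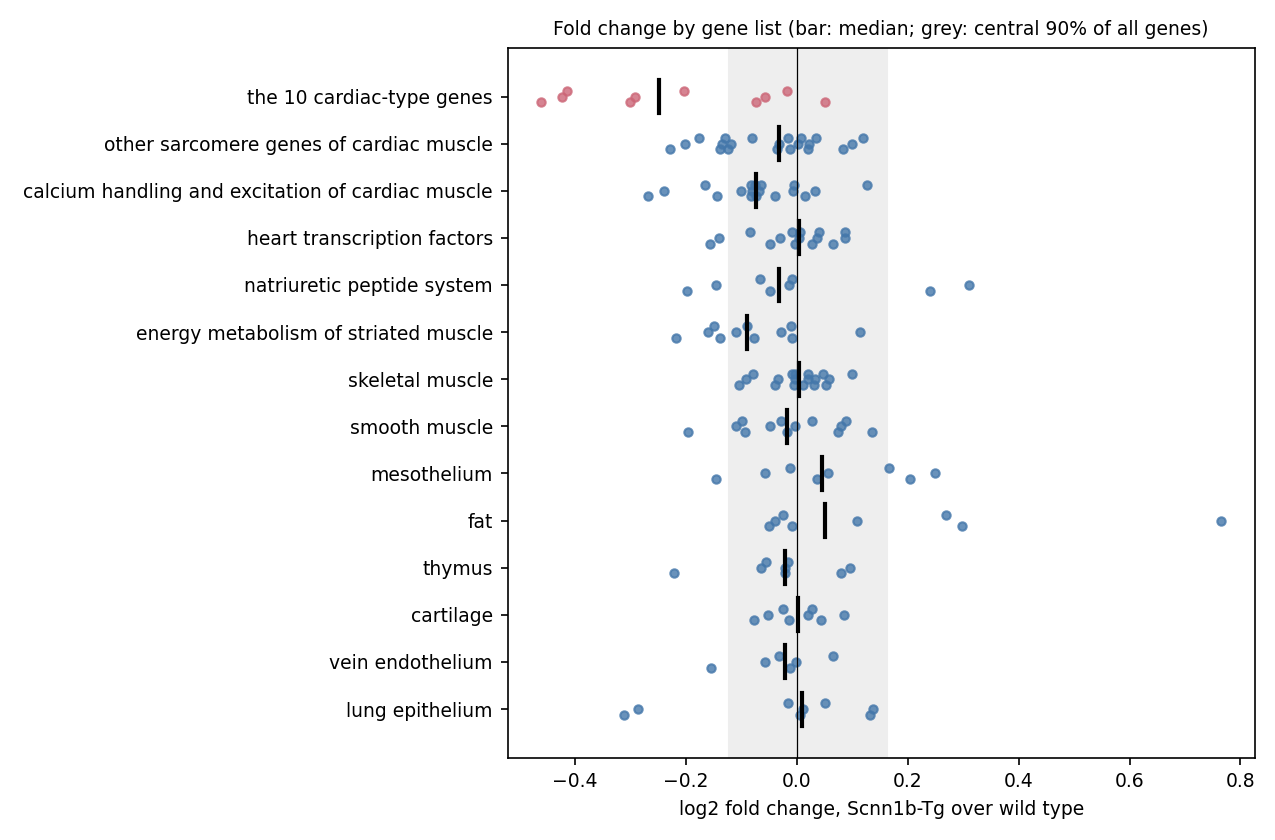
Log2 fold change (Scnn1b-Tg over wild type, horizontal axis) of every gene of the 10 cardiac-type genes (red) and of 13 further lists (blue), with black bars for list medians and a grey band for the central 90% of all genes (-0.12 to 0.16). The black bar of the 10 genes stands at -0.25, and those of the other lists stand between -0.09 and 0.05.

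Other muscle was compared because skeletal and smooth muscle share part of these genes. Of 18 skeletal muscle genes 0 were called, 0 were wholly lower or higher, and the median was 0.0042. Their summed intensity ran from 586 to 621 in wild type and from 597 to 622 in Scnn1b-Tg. The largest values were -0.10 ± 0.09 (SE) for Tnnt3 and 0.10 ± 0.08 for Tnni2, troponin genes of fast fibres, and the skeletal actin gene Acta1 gave 0.03 ± 0.05. The skeletal muscle genes were dim, with intensities of 22.7 to 59.3. No detection call is given, so whether their RNA was detected is not known. Of 13 smooth muscle genes 0 were called, with a median of -0.02 and summed intensities of 2619 to 3360 in wild type and 2920 to 3186 in Scnn1b-Tg. Here wild type replicate 2 was the array apart, with a mean log2 deviation of -0.17 against 0.13 and 0.06 on the other wild-type arrays. The smooth muscle actin gene Acta2 gave 0.14 ± 0.21, Cnn1, calponin, -0.20 ± 0.19, and Itga8, an integrin chain, -0.05 ± 0.08. On wild type replicate 2, where smooth muscle genes were lowest, Myl7 and Tnnt2 were above their means, by 0.28 and 0.22.

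Lists for other tissues that lung samples may carry had medians near that of all genes, while single genes lay further from 0. Of 8 thymus markers 0 were called, with a median of -0.02 and summed intensities of 320.4 to 329 in wild type and 303 to 315 in Scnn1b-Tg. Cd1d1, an antigen-presenting molecule that many cells make, was wholly lower at -0.22 ± 0.07 (SE), and the thymocyte genes Cd4 (0.10 ± 0.09) and Ptcra (-0.06 ± 0.07) had overlapping groups. Of 8 cartilage markers 0 were called, with a median of 0.0028, and of 8 mesothelium markers 0 were called, with a median of 0.05. The cartilage collagen gene Col2a1 gave 0.09 ± 0.08, Comp -0.08 ± 0.07 and Matn4 0.04 ± 0.09. In mesothelium, Lrrn4 gave 0.25 ± 0.09, Msln 0.20 ± 0.11, Upk1b -0.01 ± 0.07 and Krt19 0.04 ± 0.07. The fat list gave 0 called, with a median of 0.05, and the largest values, 0.76 ± 0.36 for Fabp4 and 0.30 ± 0.25 for Adipoq, were 0.31 and -0.02 without Scnn1b-Tg replicate 3. Cidec, a lipid droplet protein and bright on the fat list, stood at -0.02 ± 0.10.

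Genes of vein endothelium were also read, in whole lung, so their values are not those of the veins with heart muscle alone. Of 6 vein endothelium genes measured 0 were called, 0 were wholly lower or higher, and the median was -0.02, with summed intensities of 932 to 981 in wild type and 945 to 960.3 in Scnn1b-Tg. Nr2f2, the factor that sets venous identity, gave -0.03 ± 0.06 (SE) and Ephb4, a receptor of veins, 0.07 ± 0.08. Slc6a2, the noradrenaline transporter, gave -0.16 ± 0.14, and without Scnn1b-Tg replicate 3 it was 0.0016. In the lung epithelium list 0 of 8 were called, with a median of 0.0084. The exceptions to values near 0 were the club cell genes Scgb1a1 (-0.31 ± 0.07, wholly lower) and Scgb3a2 (-0.29 ± 0.17, and -0.50 without Scnn1b-Tg replicate 3), while the surfactant genes gave 0.0057 ± 0.07 for Sftpc and 0.14 ± 0.10 for Sftpa1. Whole-lung values do not say in which structure of the lung the heart muscle genes were expressed.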

How the data were processed

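Per the labels' protocols, lung total RNA was prepared with Trizol and labelled with biotin by Affymetrix's whole-transcript assay. The submitters' processing notes name RMA, without a version, as what the authors used for the deposited intensities. That these are linear was read from the values. A constant added before deposit would make the fold changes of dim genes smaller.

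Of 28815 probe sets 21780 had 1 gene symbol, and the brightest of a gene was kept (19935 genes, no filter). The log2 values of all 6 arrays went into lmFit and eBayes of limma 3.58.1 (R 4.3.3) with genotype as the sole term. Tests were two-sided with 6.99 moderated degrees of freedom, Benjamini-Hochberg adjustment over every gene, and calls at an adjusted p under 0.05. The fit was tested on simulated data, with recovery required only at log2 fold changes larger in size than those of the 10 genes. Members and lists were chosen with earlier results of these data known. Lists are described by counts and medians, without a test. Named genes were the 10 genes, Scnn1b, the 2 largest log2 fold changes and the 2 brightest genes of each list, and the 10 genes nearest to Myl7. Of 155 list entries 5 were not analysed here. The labels give no batch. Alternatives are in the closing section.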

Additional observations from a re-analysis of the deposited data

How the results depend on the processing

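None of the 10 genes was called by limma in any of the 16 alternatives, and over these the adjusted p ran from 0.25 for Myh6 upward. The count of called genes over the array, 1 with all 6 arrays, was 39 after dropping the 6645 dimmest genes (9 of the 10 genes remained, without Sln), 36 with an intensity trend and robust variance, 23 with 16 subtracted before log2, 6 without the arrays that stood apart (wild type replicate 2, Scnn1b-Tg replicate 3), and 3 with the replicate number as a block. With 1 array left out it ran from 0 (without wild type replicate 3) to 5 (without Scnn1b-Tg replicate 3). The median log2 fold change of the 10 genes, -0.25, ran from -0.28 to -0.15 with 1 array left out, the latter without Scnn1b-Tg replicate 3, and was -0.15 without both arrays that stood apart. The cause was not tested beyond the arrays left out. The direction of Myl7, Myl4, Myh6, Myh7, Tnnt2, Actc1 and Sln held in every alternative that measured them. Tnni3 turned to 0.0062 without both arrays, Ryr2 ran from -0.069 to 0.015 and Nppa from -0.027 to 0.11 with 1 array left out. Quantile normalization and median centring put the median of the 10 genes at -0.27 each, and moved the median of all genes to -0.0041 and -0.02. In the replicate block fit 0 of the 10 genes were called and 4 had an unadjusted p under 0.05. Deviations of same-numbered arrays correlated at 0.03, 0.03 and 0.04 over genes, and those of differently numbered arrays at -0.06 to 0.02. Correlations this small do not settle whether the numbers pair the samples. With signals this close to the lowest intensities of the arrays, small changes in Sln could not be resolved.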
